A study of Mus musculus with 4 samples.

Results

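The genes of fatty acid beta-oxidation were compared between the livers of ADAR2 knockout and wild type mice on a high-fat diet (HFD). The 33 genes were chosen by name out of 25655 genes counted, and cover the carnitine shuttle (4 genes), the acyl-CoA dehydrogenases (7), the later mitochondrial reactions (5), the auxiliary enzymes for unsaturated fatty acids (5), the electron transfer flavoproteins (3), peroxisomal transport and oxidation (7) and the peroxisomal carnitine acyltransferases (2). All 33 were found in the table, and the selection does not hold every enzyme of either pathway. HFD-WT mice were ADAR2+/+/GluR-B R/R and HFD-KO mice ADAR2-/-/GluR-B R/R, with the GluR-B R/R allele in all of them, which supplies the edited form of a glutamate receptor subunit and lets ADAR2-deficient mice live past weaning. Both genotypes were bred by crossing heterozygotes of B6129S background, and the diet began at 5 weeks of age and lasted 12 weeks. Each genotype was represented by 2 libraries of bulk liver RNA. No chow-fed group was analysed here, so the values compare genotypes under the diet and do not show what the diet did. Whether a library came from 1 mouse or a pool is not given in the sources used here, which count more mice than libraries per genotype for the gene set analysis, and p-values then measure only the spread between these libraries.

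Beta-oxidation shortens fatty acids by repeated removal of acetyl-CoA. Long-chain fatty acids enter mitochondria as carnitine esters, and each round then consists of a dehydrogenation, a hydration, a second oxidation and a thiolysis. Peroxisomes run a related cycle on very long-chain and branched fatty acids and on bile acid precursors, and pass the shortened products on. In liver the pathway feeds energy supply and ketone body synthesis, and many of its genes are known targets of the nuclear receptor PPAR alpha.

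Total counts ranged from 24480798 to 28691330 per library, and 12967 genes passed edgeR's filter on low counts. Levels are given as CPM, counts scaled by the TMM-adjusted library size, and 3 counts corresponded to between 0.105 and 0.123 CPM, a floor that covers counting error only. Adarb1, which encodes ADAR2, stood at 15.7 and 19.8 CPM in HFD-WT and at 6.23 and 9.55 CPM in HFD-KO, a log2 fold change of -1.17 ± 0.20 (SE) with an adjusted p of 0.159 by edgeR (quasi-likelihood test, Benjamini-Hochberg), and 5 of 9 alternative settings put it under 0.05. Adarb1 thus kept reads in each knockout library, and the exons they fell on cannot be read from gene counts. Of the cell type markers, 10 of 10 hepatocyte genes were measured, with a summed level of 88794 to 104171 CPM and the highest value in HFD-KO replicate 2. The macrophage markers summed to 550 and 689 CPM in HFD-WT and to 468 and 422 CPM in HFD-KO, and 11 of 12 were lower. By edgeR, 9 of them were lower at an unadjusted p under 0.05, beside 4.73% of all genes tested, and 0 at an adjusted p under 0.05. The stellate cell markers summed to 419 and 473 CPM against 371 and 301 CPM, and the cholangiocyte markers to 87.1 and 106 CPM against 78.1 and 66.3 CPM. The erythroid markers were at 758 and 601 CPM against 811 and 1147 CPM, and the endothelial markers at 375 to 440 CPM with overlapping groups. At an unadjusted p under 0.05 by edgeR, 5 of 10 stellate, 1 of 8 cholangiocyte and 1 of 10 endothelial markers (Lyve1, log2 fold change -0.70) were lower. Of the erythroid markers 3 of 6 and of the hepatocyte markers 1 of 10 were higher, beside 4.25% of all genes. None of these passed adjustment. In bulk tissue, fewer cells of a type and less RNA per cell cannot be told apart.

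No beta-oxidation gene differed between genotypes after adjustment. Of the 33 genes, 32 passed the filter, and 0 of these 32 had an adjusted p under 0.05 by edgeR or by DESeq2, beside 0.0771% and 0.887% of all genes tested. At an unadjusted p under 0.05 by edgeR, 1 gene (Abcd2, 3.12% of the 32) was higher in HFD-KO beside 4.25% of all genes, and 1 gene (Acad10) was lower beside 4.73%. DESeq2 gave 0 genes at an unadjusted p under 0.05, beside 298 higher and 373 lower of all 12967 genes tested. The log2 fold changes ran from -0.22 to 0.21 with a median of -0.03, beside a median of 0.0068 over all genes tested, and the adjusted p values from 0.507 to 0.991. The point estimates were lower in HFD-KO for 21 genes and higher for 11, and under scaling by library size alone for 28 and 4, when the median of all genes shifted to -0.04.

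The 95% intervals of the fold changes were taken gene by gene. They reflect the spread between these libraries and set no limit on the difference between the genotypes. All 32 intervals lay within ±0.5 on the log2 scale, beside 58.2% of all genes tested and 89.4% of the 5358 genes with a mean of at least 20 CPM. The lowest bound was -0.45 for Cpt1b and the highest was 0.41 for Abcd2. None of the 32 intervals reached a 1.5-fold difference in either direction. The median size of the log2 fold change was 0.06 in the beta-oxidation genes, 0.12 in all genes tested and 0.08 in those with at least 20 CPM. The plot of differences with their intervals shows this narrow band in every step.

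**Figure D1:**
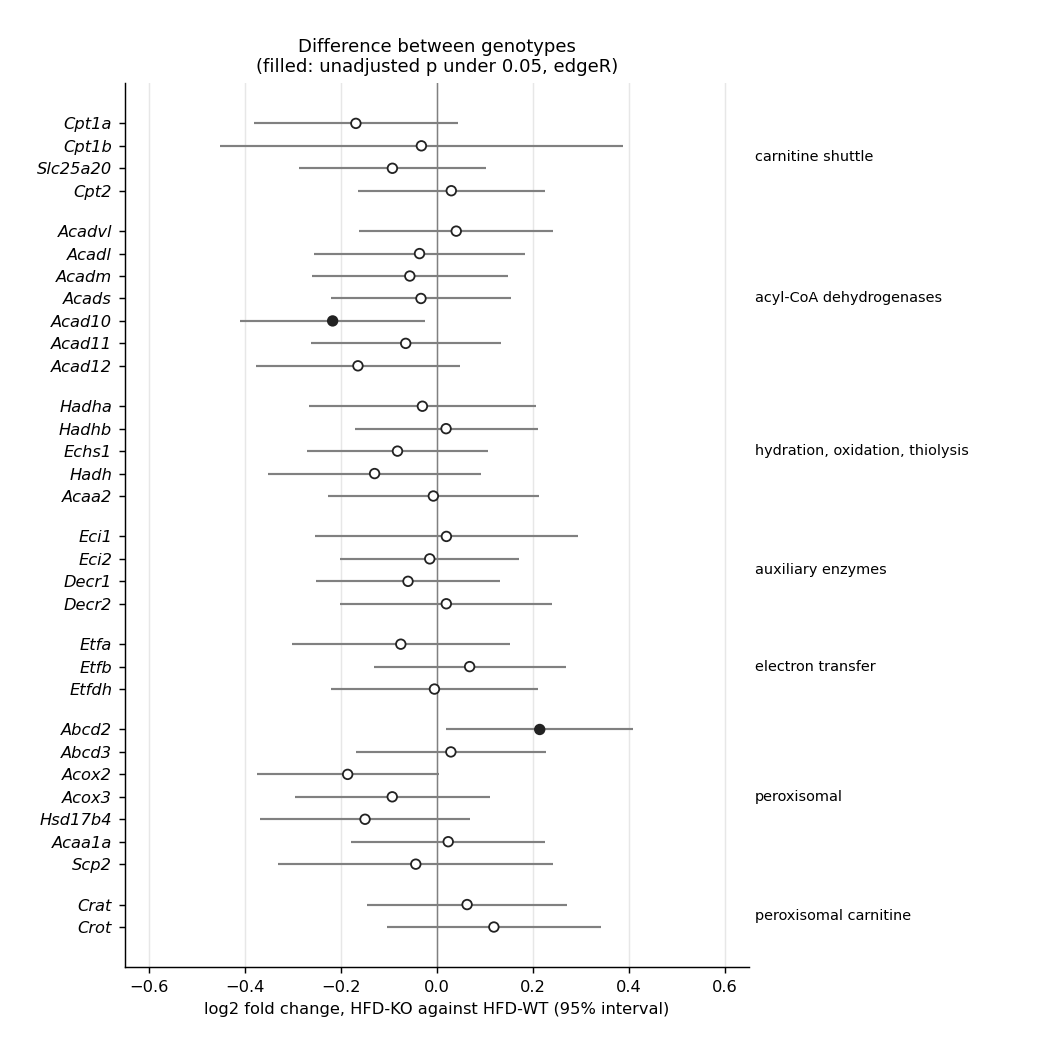
Log2 fold change, HFD-KO relative to HFD-WT (x axis), with its 95% interval for the 32 beta-oxidation genes tested, grouped by step. Filled points mark the genes with an unadjusted p under 0.05 by edgeR, Acad10 at -0.22 and Abcd2 at 0.21, and all intervals lie within ±0.5.

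The separation of the libraries was uneven. In 11 of the 32 genes (34.4%) both HFD-KO libraries lay below both HFD-WT libraries, beside 20.3% of all genes tested, in 3 genes (9.38%) both lay above, beside 20.5%, and in 18 genes the groups overlapped. HFD-KO replicate 2 was below HFD-KO replicate 1 in 26 of the 32 genes (81.25%), beside 50.7% of all genes tested, with a median log2 ratio of -0.10 against -0.0042 over all genes. The HFD-WT libraries had a median log2 ratio of 0.011 in the same genes. Without HFD-KO replicate 1 the median log2 fold change of the 32 genes was -0.09, beside 0.0004 over all genes tested. Without HFD-KO replicate 2 the median was 0.01, beside -0.0009. It was -0.05 without HFD-WT replicate 1, beside 0.0059, and -0.02 without HFD-WT replicate 2, beside 0.0066. HFD-KO replicate 2 also had the highest sums of hepatocyte and erythroid markers and the lowest sums of macrophage and stellate markers, and the part of these in the low beta-oxidation values was not tested.

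**Figure D2:**
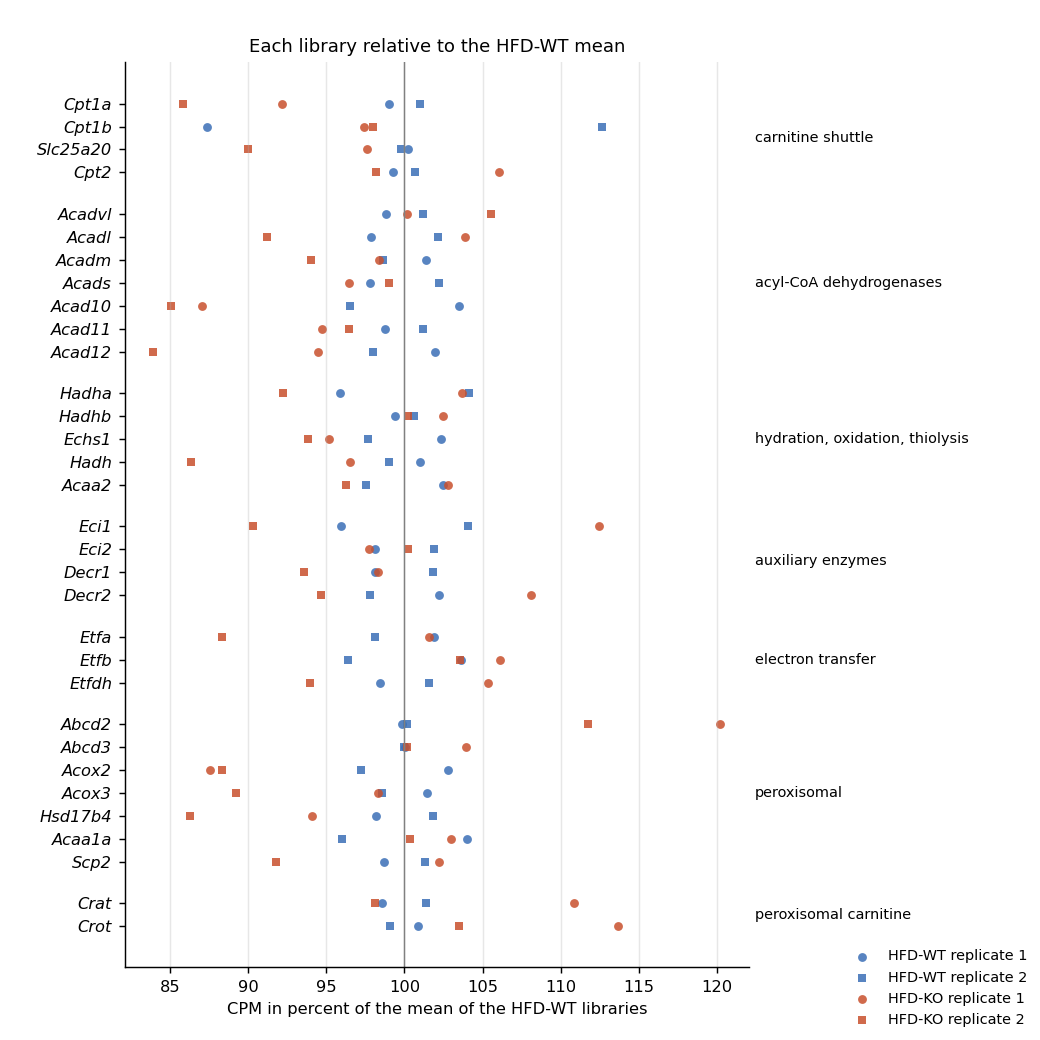
CPM of each library in percent of the HFD-WT mean (x axis) for the 32 genes tested, grouped by step, with circles for replicate 1, squares for replicate 2, blue for HFD-WT and red for HFD-KO. The red squares (HFD-KO replicate 2) lie to the left of the red circles in 26 of the 32 genes, and Abcd2 has both red points clear to the right.

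Levels between genes were compared per length, with the deposited TPM values averaged over the 4 libraries. Scp2, which encodes the peroxisomal thiolase SCPx and the sterol carrier protein, had the highest level at 3127 TPM. Gene counts cannot divide its reads between these products. Acaa2, the mitochondrial 3-ketoacyl-CoA thiolase, followed at 1041 TPM, Etfb at 762 TPM and Hadh at 622 TPM. In all, 26 genes had at least 100 TPM, 3 had from 10 to under 100 TPM (Crat, Acad10 and Abcd2) and 4 had less than 10 TPM (Acox3, Acad12, Cpt1b and Eci3). The order hardly varied, since 12 genes held the same rank in all 4 libraries and no gene moved by more than 4 ranks. Acadm at 522 TPM and Crot at 508 TPM exchanged places between genotypes. Acadm ranked 5 and 5 in HFD-WT and 6 and 6 in HFD-KO, and Crot 8 and 7 against 5 and 5. The largest move was that of Cpt1a, at 17 and 17 in HFD-WT and 18 and 21 in HFD-KO. These ranks were not tested.

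**Figure D3:**
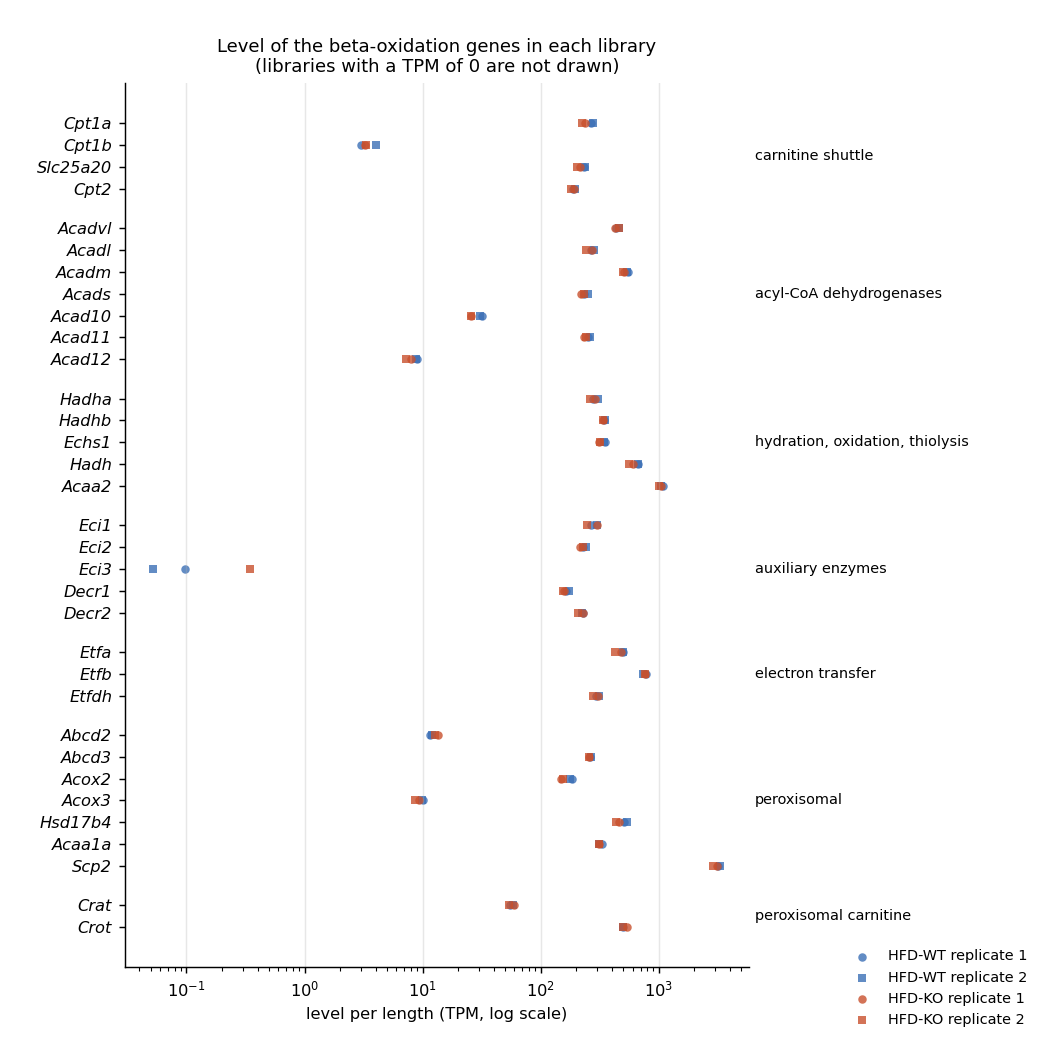
Level per length (TPM, log scale, x axis) of the 33 beta-oxidation genes in each of the 4 libraries, grouped by step. Scp2 lies highest near 3127 TPM, 26 genes have a mean of at least 100 TPM, and Eci3 lies lowest and is at 0 in HFD-KO replicate 1.

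Promoter sequences from RefSeq (GRCm38.p6), from 250 bases before to 50 bases after the start, were matched to 27 of the 33 genes, in 29 windows. They are shown because many of these genes are known as PPAR alpha targets. The hexamer AGGTCA, the core recognised by nuclear receptors such as PPAR alpha, was searched on both strands. It occurred in 5 of the 29 windows (17.2%), beside 16.3% of 32851 windows of all genes. The 5 matches are printed with up to 12 bases on either side and the hexamer in capitals, read along the strand of the gene, where TGACCT is the hexamer on the other strand.
Cpt1a, chr19:3323195-3323224, plus strand, 94 bases before the start: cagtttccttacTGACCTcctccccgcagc
Acadvl, chr11:70015498-70015527, minus strand, 87 bases before the start: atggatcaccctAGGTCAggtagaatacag
Echs1, chr7:140116487-140116516, minus strand, 83 bases before the start: accagcccgctcAGGTCAcgggtccacccc
Scp2, chr4:108118639-108118668, minus strand, 109 bases before the start: gtctaacacagtAGGTCAaaagaacccata
Acadm, chr3:153944875-153944893, minus strand, 249 bases before the start at the edge of the window: gTGACCTtcgggctccggt
The direct repeat of 2 such hexamers with 1 base between them, the form known for PPAR alpha, was in 0 of the 29 windows and in 0.04% of all windows. TATAAA was in 0 of 29 windows beside 13.6% of all, and CCAAT in 10 of 29 (34.5%) beside 37.4%. The windows had a median GC content of 60.7%, from 50.7% to 77.0%, beside 52.7% over all windows. A match describes letters and not a bound site, and no match says only that these letters are not in the window.

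The carnitine shuttle carries long-chain acyl groups into the mitochondrial matrix. Cpt1a, the liver form of the outer membrane enzyme and the main control point of the pathway (GRCm39, chr19:3372334-3435733), had 669 and 682 CPM in HFD-WT and 623 and 580 CPM in HFD-KO. Both HFD-KO libraries lay below both HFD-WT libraries, with a log2 fold change of -0.17 ± 0.09 (SE) and an edgeR adjusted p of 0.644. Slc25a20, the carnitine-acylcarnitine carrier of the inner membrane, had 208 and 207 CPM against 202 and 187 CPM, with a log2 fold change of -0.09. Cpt2, which releases the acyl-CoA inside, had 223 and 226 CPM against 238 and 220 CPM, and its groups overlapped. The TPM ratio of Cpt1a to Cpt2 was 1.42 and 1.43 in HFD-WT and 1.23 and 1.24 in HFD-KO, without overlap and with no test. Cpt1b, the muscle form, stood at 5.08 to 6.54 CPM with overlapping groups, while the striated muscle markers summed to 0.754 to 2.35 CPM. Its locus is shared on the same strand by Gm44502, which took 1960 reads beside 612 for Cpt1b over the 4 libraries, so the division of reads between them is uncertain. The Cpt1a level was 67.8 to 87.7 times the Cpt1b level in TPM.

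The acyl-CoA dehydrogenases start each round and are selective for chain length. Acadm, for medium chains (GRCm39, chr3:153627994-153650269), had the highest level per length of this step and stood at 588 and 572 CPM in HFD-WT and 570 and 545 CPM in HFD-KO. Its log2 fold change was -0.06 ± 0.09 (SE) with an edgeR adjusted p of 0.886, and both HFD-KO values lay slightly below both HFD-WT values. Acadvl, for very long chains, had 473 and 485 CPM against 480 and 506 CPM with a log2 fold change of 0.04. Acadl, for long chains, and Acads, for short chains, had log2 fold changes of -0.04 and -0.03 with overlapping groups. Acad10, a less studied member of the family (GRCm39, chr5:121759089-121798577), stood at 61.9 and 57.7 CPM in HFD-WT and at 52.0 and 50.8 CPM in HFD-KO. This was the lowest log2 fold change of the 32 genes, -0.22 ± 0.08 (SE), with an unadjusted p of 0.0323 and an adjusted p of 0.507 by edgeR. Acad12 lies next to Acad10 on the same strand with 2087 bases and no gene between them, and had 29.3 and 28.2 CPM against 27.2 and 24.1 CPM with a log2 fold change of -0.16. Both neighbours had HFD-KO values below HFD-WT values, and their TPM ratio of 3.23 to 3.56 overlapped between groups. Acad11, which is active on long chains, had 502 and 514 CPM against 481 and 490 CPM with a log2 fold change of -0.06.

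The rest of the mitochondrial round is done by Hadha and Hadhb, the subunits of the trifunctional protein, and by Echs1, Hadh and Acaa2 for shorter chains. Acaa2 had 822 and 782 CPM in HFD-WT and 824 and 772 CPM in HFD-KO. The groups overlapped, with a log2 fold change of -0.0072 ± 0.09 (SE) and an edgeR adjusted p of 0.988, and the estimate turned to 0.04 without HFD-KO replicate 2. Hadh, the short-chain 3-hydroxyacyl-CoA dehydrogenase, had 594 and 583 CPM against 568 and 508 CPM with a log2 fold change of -0.13. Echs1, the short-chain enoyl-CoA hydratase, had 274 and 261 CPM against 254 and 251 CPM with a log2 fold change of -0.08. Paox overlaps the locus on the other strand and took 7.61% as many reads. Hadha had 558 and 607 CPM against 604 and 537 CPM, and Hadhb 356 and 360 CPM against 367 and 359 CPM, so neither subunit gene separated the groups.

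Hadha and Hadhb lie head to head on chromosome 5 with 85 bases between them by the table's GRCm39 positions. The RefSeq starts are 273 bases apart on GRCm38.p6, and 228 of the 300 bases of the Hadhb window also lie in the Hadha window. The Hadhb window is printed on its own strand, with the bases shared by both windows in capitals. By the GRCm39 positions, with 85 bases between the genes, part of this shared stretch lies inside a gene.
Hadhb, chr5:30155003-30155302, plus strand: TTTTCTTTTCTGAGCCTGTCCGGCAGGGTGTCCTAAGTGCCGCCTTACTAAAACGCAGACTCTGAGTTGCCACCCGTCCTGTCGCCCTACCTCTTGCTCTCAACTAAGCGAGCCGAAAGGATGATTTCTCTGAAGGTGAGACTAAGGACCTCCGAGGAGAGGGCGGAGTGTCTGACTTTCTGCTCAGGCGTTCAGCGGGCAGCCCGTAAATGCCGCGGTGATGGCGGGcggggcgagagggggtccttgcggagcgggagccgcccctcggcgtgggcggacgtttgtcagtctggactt
The shared bases have a GC content of 57.0%. The TPM ratio of Hadha to Hadhb was 0.812 and 0.872 in HFD-WT and 0.853 and 0.775 in HFD-KO, and the groups overlapped.

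The auxiliary enzymes bring the double bonds of unsaturated fatty acids into the position that the cycle can use. Eci1, a mitochondrial enoyl-CoA isomerase (GRCm39, chr17:24645615-24658322), had 190 and 206 CPM in HFD-WT and 222 and 178 CPM in HFD-KO. The HFD-KO libraries lay on either side of both HFD-WT libraries, with a log2 fold change of 0.02 ± 0.12 (SE) and an edgeR adjusted p of 0.976, and the estimate was negative under scaling by library size alone. Eci2, an isomerase of peroxisomes and mitochondria, had 235 and 244 CPM against 234 and 240 CPM. Eci3 lies 13937 bases from Eci2 on the same strand and was counted with 2 and 1 reads in HFD-WT and 0 and 6 reads in HFD-KO. At this depth it was at or near the floor and no difference was detectable. Decr1 and Decr2, the mitochondrial and peroxisomal dienoyl-CoA reductases, had log2 fold changes of -0.06 and 0.02, and all 4 genes tested in this step had overlapping groups.

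Electrons from the dehydrogenases pass through the flavoprotein subunits encoded by Etfa and Etfb to the ubiquinone reductase encoded by Etfdh. Etfb (GRCm39, chr7:43093507-43107224) had 349 and 325 CPM in HFD-WT and 358 and 349 CPM in HFD-KO. Its log2 fold change was 0.07 ± 0.09 (SE) with an edgeR adjusted p of 0.853, and the groups overlapped. Etfa had 351 and 338 CPM against 350 and 304 CPM, and Etfdh 359 and 370 CPM against 384 and 343 CPM. The TPM ratio of Etfa to Etfb was 0.645 and 0.667 in HFD-WT and 0.627 and 0.559 in HFD-KO, so both HFD-KO values were lower, with HFD-KO replicate 2 lowest.

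Among the peroxisomal genes, Abcd2 and Abcd3 encode membrane transporters of fatty acyl-CoA. Abcd2 (GRCm39, chr15:91030074-91076002) had 32.4 and 32.5 CPM in HFD-WT and 39.0 and 36.3 CPM in HFD-KO. Both HFD-KO libraries lay above, by a log2 fold change of 0.21 ± 0.08 (SE) with an unadjusted p of 0.0350 and an adjusted p of 0.511 by edgeR. The more abundant Abcd3 had 473 and 473 CPM against 492 and 474 CPM with a log2 fold change of 0.03, and the TPM ratio of Abcd3 to Abcd2 was 22.3 and 22.2 against 19.3 and 19.97. Acox2, the oxidase of bile acid precursors and branched chains, had 275 and 260 CPM against 234 and 236 CPM. It lay lower in both HFD-KO libraries, with a log2 fold change of -0.19, an unadjusted p of 0.0541 and an adjusted p of 0.561 by edgeR. Acox3, a further branched-chain oxidase, had a log2 fold change of -0.09 at 30.3 to 34.4 CPM. Hsd17b4, the D-bifunctional protein that follows the oxidases, had 683 and 708 CPM against 654 and 600 CPM with a log2 fold change of -0.15 and an edgeR adjusted p of 0.688.

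The thiolases end the peroxisomal round. Acaa1a had 346 and 319 CPM in HFD-WT and 342 and 333 CPM in HFD-KO, with overlapping groups, and Myd88 overlaps it on the other strand with 5.44% as many reads. Scp2 (GRCm39, chr4:107901036-108002195) had 4551 and 4675 CPM in HFD-WT and 4716 and 4233 CPM in HFD-KO. Its log2 fold change was -0.04 ± 0.12 (SE) with an edgeR adjusted p of 0.943, and the HFD-KO libraries again lay on either side of both HFD-WT libraries. Without HFD-KO replicate 2 the estimate was 0.03.

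Crot and Crat hand shortened acyl groups to carnitine for export. Crot, the peroxisomal octanoyltransferase (GRCm39, chr5:9016033-9047324), had 747 and 733 CPM in HFD-WT and 842 and 766 CPM in HFD-KO. Both HFD-KO values lay above, with a log2 fold change of 0.12 ± 0.10 (SE) and an edgeR adjusted p of 0.755. Crat, the acetyltransferase of mitochondria and peroxisomes, had 144 and 148 CPM against 162 and 143 CPM, and Dolpp1 overlaps its locus on the other strand with 9.03% as many reads. The TPM ratio of Crot to Crat was 8.61 to 9.01 in HFD-WT and 9.03 to 9.29 in HFD-KO.

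Summed over the genes of a step, the levels differed by a few percent. The carnitine shuttle summed to 1105 and 1122 CPM in HFD-WT and to 1069 and 992 CPM in HFD-KO, a mean difference of -7.44%. The dehydrogenases summed to 2129 and 2153 CPM against 2099 and 2076 CPM, also without overlap, at -2.51%. The carnitine acyltransferases summed to 891 and 881 CPM against 1003 and 909 CPM, at 7.91%. In the 4 other steps the groups overlapped, and the sum over all 33 genes was 15112 and 15236 CPM against 15367 and 14237 CPM. Scp2 made up most of the peroxisomal sum, and without it the other 6 genes summed to 1843 and 1826 CPM against 1795 and 1710 CPM, with both HFD-KO values below. The smallest exact permutation p that 2 against 2 libraries allow is 0.333, so the sums were not tested. TPM differs from CPM both in the library scaling and in the weight by gene length. In TPM, every step sum was lower in HFD-KO, relative to HFD-WT, than it was in CPM. The sum over all 33 genes was 12636 and 12952 TPM in HFD-WT and 12281 and 11712 TPM in HFD-KO, without overlap, at -6.23%. Both HFD-KO values were then also below both HFD-WT values for the later mitochondrial reactions (-7.15%), the flavoproteins (-3.58%) and the peroxisomal genes (-7.60%), as for the shuttle (-9.80%) and the dehydrogenases (-6.18%). The auxiliary enzymes and the carnitine acyltransferases overlapped in TPM. The hepatocyte marker Apob, outside the list, had group means of 4018 and 4074 CPM (wild type first), but of 581 and 565 TPM. For Alb they were 54308 and 59390 CPM, but 53814 and 56455 TPM. A downward move in TPM was thus not particular to these steps. For a single gene, the ratio of TPM to CPM changes between 2 libraries by the same factor as for every other gene. The part of the move that came from library scaling was therefore no larger here than over all genes. The TPM sums do not show a decrease of the pathway.

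**Figure D4:**
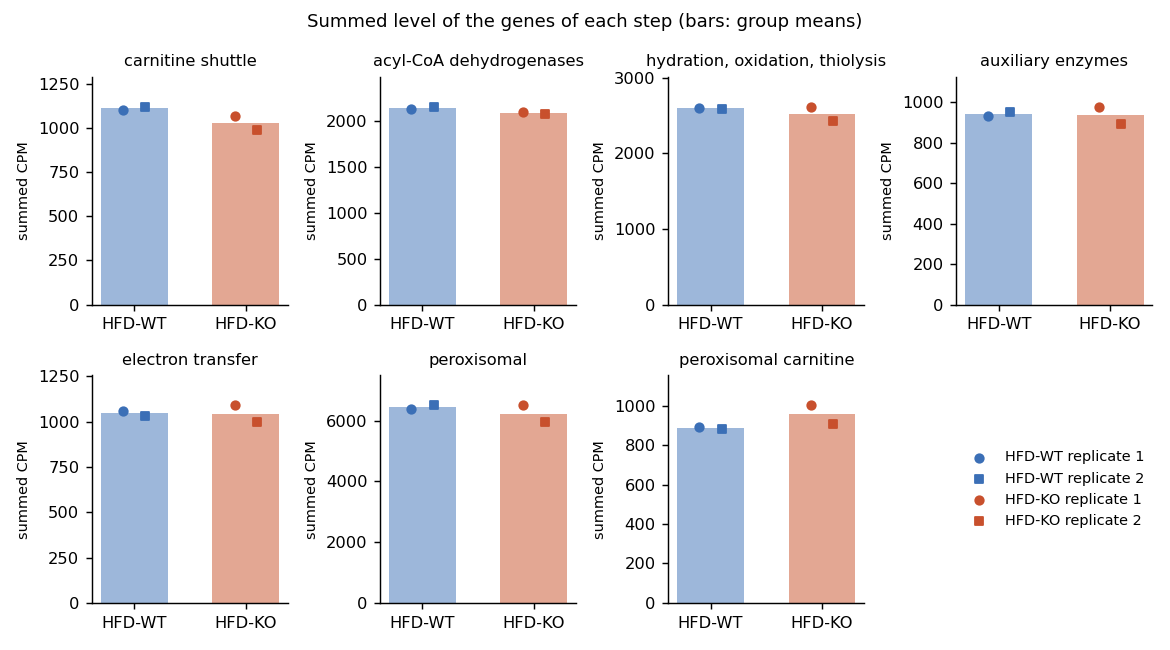
Summed CPM of the genes of each step (y axis, from 0) in HFD-WT and HFD-KO, with bars for group means and a point for each library. Both HFD-KO points lie below both HFD-WT points for the carnitine shuttle and the dehydrogenases and above them for the peroxisomal carnitine acyltransferases.

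Genes around beta-oxidation were taken from 7 lists of 93 genes, of which 89 were tested and 0 had an adjusted p under 0.05 by edgeR. At an unadjusted p under 0.05, 7 (7.87%) were higher in HFD-KO, beside 4.25% of all genes tested, namely Acsl3, Acot1, Acot3, Cyp4a14, Cyp4f14, Cyp4a31 and Hacl1. Acsm3, Acot11, Pex11a, Lpin1 and Acaca were lower (5 genes, 5.62%), beside 4.73% of all genes, and the log2 fold changes of the lists had a median of -0.0091. Of the fatty acid activation genes, Acsl3 was at 10.7 and 10.3 CPM against 16.2 and 14.2 CPM (log2 fold change 0.53, edgeR adjusted p 0.233), and Acsm3 had a log2 fold change of -0.25 (edgeR adjusted p 0.515). In both, the groups did not overlap. Of the 11 thioesterases tested, Acot1, which is induced by PPAR alpha ligands, was at 60.1 and 64.97 CPM against 84.4 and 94.1 CPM (log2 fold change 0.51, edgeR adjusted p 0.172), and Acot3 was at 46.5 and 32.3 CPM against 62.7 and 56.1 CPM (log2 fold change 0.59, edgeR adjusted p 0.363). Of the 11 omega-oxidation genes, Cyp4a14, a fatty acid hydroxylase, was at 1854 and 1564 CPM against 2134 and 2685 CPM (log2 fold change 0.50, edgeR adjusted p 0.400). Hacl1 of alpha-oxidation had a log2 fold change of 0.39 (edgeR adjusted p 0.462). Pex11a, which promotes peroxisome division, had a log2 fold change of -0.27 (edgeR adjusted p 0.518). Acat1, the mitochondrial acetoacetyl-CoA thiolase, was at 592 and 608 CPM against 661 and 586 CPM with overlapping groups, and 0 of the 4 ketone body genes reached an unadjusted p under 0.05. Of the regulators, Lpin1, a coactivator of PPAR alpha, was at 162 and 334 CPM against 98.5 and 112 CPM (log2 fold change -1.24, edgeR adjusted p 0.268), and the HFD-WT libraries lay far apart, so that the log2 fold change was -0.62 without HFD-WT replicate 2. Single libraries also weighed on other genes of these lists. The log2 fold change of Acot3 was 0.35 without HFD-WT replicate 2, and that of Hacl1 was 0.21 without HFD-WT replicate 2 and 0.60 without HFD-WT replicate 1. Without HFD-KO replicate 2 it was -0.14 for Acsm3, 0.32 for Cyp4a14, 0.15 for Cyp4a31 and -0.17 for Pex11a, which was also at -0.17 without HFD-WT replicate 2. Without HFD-KO replicate 1 it was 0.21 for Cyp4f14, 1.08 for Cyp4a31 and -0.14 for Acaca. Ppara had a log2 fold change of -0.06 (edgeR adjusted p 0.942) and Ppargc1a of -0.03 (edgeR adjusted p 0.969), both with overlapping groups.

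**Figure D5:**
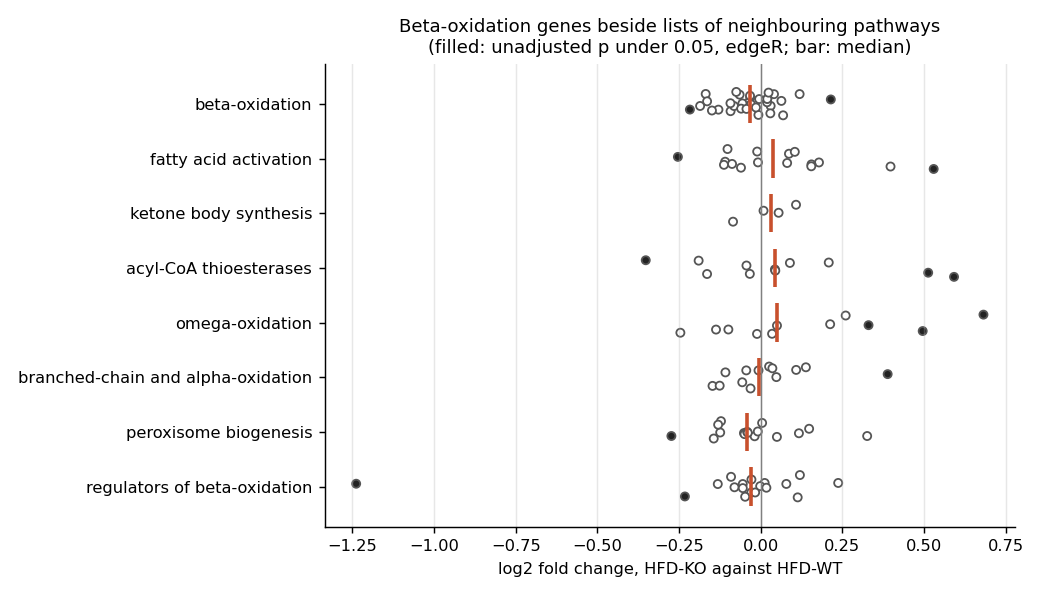
Log2 fold change, HFD-KO relative to HFD-WT (x axis), for the genes tested in the beta-oxidation list and in 7 lists of neighbouring pathways, with a point for each gene and a bar at each median. The beta-oxidation genes lie between -0.22 and 0.21, and filled points (unadjusted p under 0.05 by edgeR) include Acot1 at 0.51, Cyp4a14 at 0.50 and Lpin1 at -1.24.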

How the data were processed

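Liver RNA of 2 HFD-WT and 2 HFD-KO libraries was compared, with groups and replicate numbers taken from the sample titles. TRIzol RNA went into directional MGI libraries, and the authors aligned the paired reads with MGI's own tool and quantified GENCODE genes in Partek Genomics Suite. Tool versions, strand use and the handling of multi-mapping reads are not given in the sources used here. The submitters' processing notes list GRCm39 and mm10, and the positions in the table fit GRCm39. The deposited counts are whole reads per gene and were the values tested. The deposited TPM values, scaled by length to a fixed sum, served for levels between genes. The deposited RPKM values and the deposited CPM values, a score on an adjusted library size, were not used. The tests used edgeR 4.0.16 under R 4.3.3 (filterByExpr, TMM, quasi-likelihood test, two-sided, Benjamini-Hochberg adjustment over 12967 genes, common biological coefficient of variation 0.102), with DESeq2 1.42.0 as an alternative, and the fit was tested on simulated data. Plots were drawn with matplotlib 3.10.9. Intervals of fold changes use the fit's standard error at 95%. Full values were given for genes with an unadjusted p under 0.05 and for the gene of highest TPM in each step, other genes of the list by step, and up to 3 genes of smallest p from each related list with Ppara and Ppargc1a. A result for 1 gene of the related lists is not reported here. The genes and lists were chosen with earlier results of these data known.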

Additional observations from a re-analysis of the deposited data

How the results depend on the processing

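0 beta-oxidation genes reached an adjusted p under 0.05 under any of the 9 alternatives, and the median log2 fold change stayed within the spread between libraries. The counts at an unadjusted p under 0.05 did move: the 1 higher gene became 0 with library size alone as scaling, with the replicate block and with the DESeq2 Wald test, and 0 to 1 with single libraries left out. The 1 lower gene became 2 with library size alone, 0 with the block and with DESeq2, and 0 to 5 with single libraries left out, where 5 came without HFD-KO replicate 1. In the related lists the 7 higher genes ranged from 5 to 12 with single libraries left out and the 5 lower genes from 1 to 9, with 12 and 9 reached without HFD-KO replicate 1 and 1 without HFD-WT replicate 2, and DESeq2 gave 3 lower genes. Over all genes, 10 were called in the main comparison, against 162 without the filter on low counts, 20 with the block, 115 with DESeq2, 6 with library size alone, 0 without HFD-WT replicate 2, 705 without HFD-KO replicate 1 and 411 without HFD-KO replicate 2. A group of 1 library was assumed to vary like the other group.

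Adarb1 passed the threshold at a log2 fold change of -1.18 without the filter, -1.19 with the block and -1.17 with DESeq2. With single libraries left out, its log2 fold change ranged from -1.51 without HFD-KO replicate 2 to -0.89 without HFD-KO replicate 1. The dehydrogenase sum went from -0.04 to -0.083 on the log2 scale with library size alone. Signs turned for genes near 0: with library size alone, Eci1 was at -0.0254, and with single libraries left out Eci1 ranged from -0.15 to 0.17, Acaa2 from -0.0545 to 0.0386, Scp2 from -0.12 to 0.0312, Acat1 from -0.0343 to 0.1385, Ppara from -0.32 to 0.17 and Ppargc1a from -0.13 to 0.0692. Of the 23 genes named from the related lists, 10 had an adjusted p under 0.05 in 1 to 4 alternatives and not in the main comparison, Acot1 and Lpin1 most often. Of the 32 genes tested, 15 kept their sign under all 9 alternatives and 17 did not. The cause was not tested. The same replicate numbers occur in both groups, but same-numbered libraries did not deviate together (correlation -0.0764), so the block carries no pairing that the labels describe.

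Counting depth allowed no comparison of Eci3, and Cpt1b, at 612 reads in all, was the least precise of the 32 genes tested. With 2 libraries a group, differences within the intervals given could not be resolved.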
